A study of Mus musculus with 16 samples.

Results

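The serpin family genes of mouse liver and liver tumour were examined in 16 RNA sequencing libraries. They were taken as the genes whose symbol begins with Serpin and whose normalised count reached 10 in at least 2 of the 16 libraries, which gave 33 of the 61 Serpin symbols in the table, among 14836 genes past the same filter. Every mouse belonged to a model in which the carcinogen diethylnitrosamine (DEN) induces hepatocellular carcinoma, so the DEN treatment was shared by all groups (of its dose and timing the sources used here say nothing). The 6 groups were tumours at 9 months on a high-fructose diet (3 libraries) or a cornstarch diet (2), livers at 9 months on the high-fructose diet (3) or the cornstarch diet (3), and livers at 5 months on the high-fructose diet (2) or the cornstarch diet (3). The labels name no strain, sex or number of mice, nor whether the libraries of a group, or a tumour and a liver, were from different mice. The p-values therefore measure the spread between these libraries, part of which may be technical. The series asked how fructose affects gene expression in the liver of this model.

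Serpins are mostly inhibitors of serine proteases. A protease cuts the exposed reactive centre loop of the serpin as if it were a substrate, and the cut loop then inserts into the body of the serpin and traps the protease in a covalent complex. Hepatocytes secrete most of the serpins of blood plasma, which restrain coagulation, fibrinolysis, complement and the proteases of granulocytes, and several of them belong to the acute phase response of the liver. Some members inhibit no protease and instead carry hormones or chaperone collagen, and the members of clade B stay inside cells, where they guard against granule and lysosomal proteases.

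Depth was 11232461 to 38377674 reads per library, and the serpins took 1.48% to 4.08% of the reads, the lowest and the highest share both in fructose tumours. The summed hepatocyte markers (Alb, Ttr, Apoa1, Hnf4a and Tat) lay between 1081317 and 4101790 normalised counts in all libraries, and the tissue label of the tumours rests on the sample source alone. Replicate 1 of the 5-month fructose livers and replicate 1 of the 5-month cornstarch livers had Xist at 12936 and 10883 normalised counts, with Y-linked sums of 0 and 1.91, unlike the other 14 libraries. The calls at 5 months are therefore also given without these 2 libraries. In such tissue samples, fewer cells of a type and less RNA per cell cannot be told apart.

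The alpha-1-antitrypsin gene, which encodes the main plasma inhibitor of neutrophil elastase, is present in several near-identical copies in the mouse, and 5 of them (Serpina1a to Serpina1e) were members. Over 1242 aligned bases of their longest open reading frames (GENCODE M21 transcripts, GRCm38) they were 96.3% to 98.47% identical, and 86 positions varied. The most variable stretch of 60 bases held 18 variable positions, against a median of 4 over all such stretches. It is shown because it codes for the reactive centre loop, the part that decides which protease is bound. Capitals mark a base other than the most frequent one among the copies, with c taken as the most frequent base at 2 tied positions.
Serpina1a: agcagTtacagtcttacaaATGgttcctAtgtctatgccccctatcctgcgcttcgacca
Serpina1b: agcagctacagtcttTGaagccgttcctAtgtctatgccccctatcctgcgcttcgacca
Serpina1c: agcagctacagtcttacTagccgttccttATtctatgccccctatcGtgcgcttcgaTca
Serpina1d: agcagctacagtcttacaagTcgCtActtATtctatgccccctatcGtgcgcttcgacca
Serpina1e: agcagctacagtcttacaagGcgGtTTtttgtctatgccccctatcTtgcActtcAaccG
Serpina1e departed from the most frequent base at 8 bases of this stretch, Serpina1d at 6, Serpina1a and Serpina1c at 5 each, and Serpina1b at 3. Of all windows of 50 bases in the open reading frames, between 25.4% (Serpina1c) and 61.02% (Serpina1e) occurred in no other serpin transcript, so the split of reads among the copies is uncertain.

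The DNA upstream of the copies is shown beside it, because the copies took unlike shares of the Serpina1 reads in tumours and livers. The aligned stretches of 188 to 190 bases (RefSeq, GRCm38.p6, chromosome 12, minus strand) were 92.55% to 97.87% identical. For Serpina1a to Serpina1d, unlike Serpina1e, the bases just after the RefSeq start were not found near the start of a GENCODE transcript. Where these copies start is therefore uncertain. Capitals mark exact matches to TGGACTTAG, a site of the hepatocyte factor HNF4 known from the human promoter, and to GTTAAT, the core of sites of the factor HNF1. Both motifs were searched on both strands, do not overlap, and were chosen after the values had been seen.
Serpina1a (chr12:103863625-103863812): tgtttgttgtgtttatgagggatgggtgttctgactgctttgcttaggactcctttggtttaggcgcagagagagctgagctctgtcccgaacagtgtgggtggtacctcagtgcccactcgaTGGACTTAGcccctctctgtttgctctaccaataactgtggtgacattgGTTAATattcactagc
Serpina1b (chr12:103738200-103738389): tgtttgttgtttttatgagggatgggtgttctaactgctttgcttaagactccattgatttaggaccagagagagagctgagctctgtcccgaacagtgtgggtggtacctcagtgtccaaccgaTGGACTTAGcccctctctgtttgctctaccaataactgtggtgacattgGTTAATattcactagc
Serpina1c (chr12:103904962-103905149): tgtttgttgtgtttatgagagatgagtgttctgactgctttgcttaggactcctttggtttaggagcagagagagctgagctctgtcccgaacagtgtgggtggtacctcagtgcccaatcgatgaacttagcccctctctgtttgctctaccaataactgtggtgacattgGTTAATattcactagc
Serpina1d (chr12:103773634-103773822): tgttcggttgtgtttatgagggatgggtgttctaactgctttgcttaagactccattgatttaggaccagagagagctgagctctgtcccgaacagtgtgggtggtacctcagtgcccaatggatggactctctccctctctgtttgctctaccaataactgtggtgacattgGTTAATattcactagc
Serpina1e (chr12:103956960-103957147): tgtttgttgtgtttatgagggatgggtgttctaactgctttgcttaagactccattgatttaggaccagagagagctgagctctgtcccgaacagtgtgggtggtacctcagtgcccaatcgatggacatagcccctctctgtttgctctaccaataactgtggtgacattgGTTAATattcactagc
TGGACTTAG was present in Serpina1a and Serpina1b and in none of the other copies, and it occurred in 34 of the 27025 RefSeq promoter windows (0.126%). These windows are the 250 bases before a gene start and are longer than the stretches shown. GTTAAT was present in all 5 copies and in 6.52% of those windows. Both are matches of letters, and an absent match says only that these letters are not in the window. Since TGGACTTAG was taken from the human promoter, its share over all windows is no measure of chance for these copies.

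Clade A, the antitrypsin-like and antichymotrypsin-like plasma serpins, supplied 18 members and 84.163% of the summed serpin signal. The other members included 6 of clade B, antithrombin (Serpinc1, 5.76%), heparin cofactor II (Serpind1), protease nexin (Serpine2) of clade E, Serpinf1 and Serpinf2 of clade F (4.715%), the C1 inhibitor Serping1 (3.033%), the collagen chaperone Serpinh1 and neuroserpin (Serpini1). Per kilobase of exon, Serpina3k, a relative of antichymotrypsin, had the highest mean level over the 16 libraries at 64395 normalised counts, followed by Serpina1b at 48210 and the other 4 Serpina1 copies at 16971 to 29018. Serpina3n followed at 12648, antiplasmin (Serpinf2) at 7325 and Serping1 at 6947, while Serpinb6a, the highest of clade B, stood at 118.

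Of the 33 members, 26 reached 10 normalised counts in all libraries and Serpinb1a in 15. The other 6 were low: Serpina3i reached 10 in 6 libraries, Serpina3c in 5, Serpini1 in 3, and Serpina5, Serpina9 and Serpinb10 in 2 each. Just inside the threshold, Serpina5 (protein C inhibitor) peaked at 13.5 and Serpinb10, which the annotation lists as a polymorphic pseudogene, at 11.7. Just outside it, Serpinb9c peaked at 11.3 in 1 library and Serpina3b at 8. Of the members, 17 lie on chromosome 12, 4 on chromosome 1, 4 on chromosome 13 and 2 on chromosome 11, and the other 6 each on a chromosome of their own. In the annotation, Serpina3k and Serpina3m share their first base (GRCm38 chromosome 12, 104338486, plus strand), so reads of the overlap could be counted for either. The 3 genes that the annotation names Serpina3g, Serpina3h and Serpina4-ps1 had no symbol in the table and so were not members, although they passed the level.

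The serpins had a higher median spread between libraries than all genes had. The standard deviation of log2(value + 1) over the 16 libraries had a median of 0.81 over the 33 members and of 0.433 over all 14836 genes past the filter, and it was 0.735 over the 18 members with the highest mean. Serpina1e had the widest range, 6.91 on the log2 scale, with its lowest value in a fructose tumour (712) and its highest in a 5-month fructose liver (85659). Serpinc1 had the narrowest standard deviation at 0.378. Of the members, 22 passed the test in at least 1 of the 10 comparisons made and 11 in none, and 15 passed in at least 1 of the 5 comparisons between 2 groups.

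**Figure D1:**
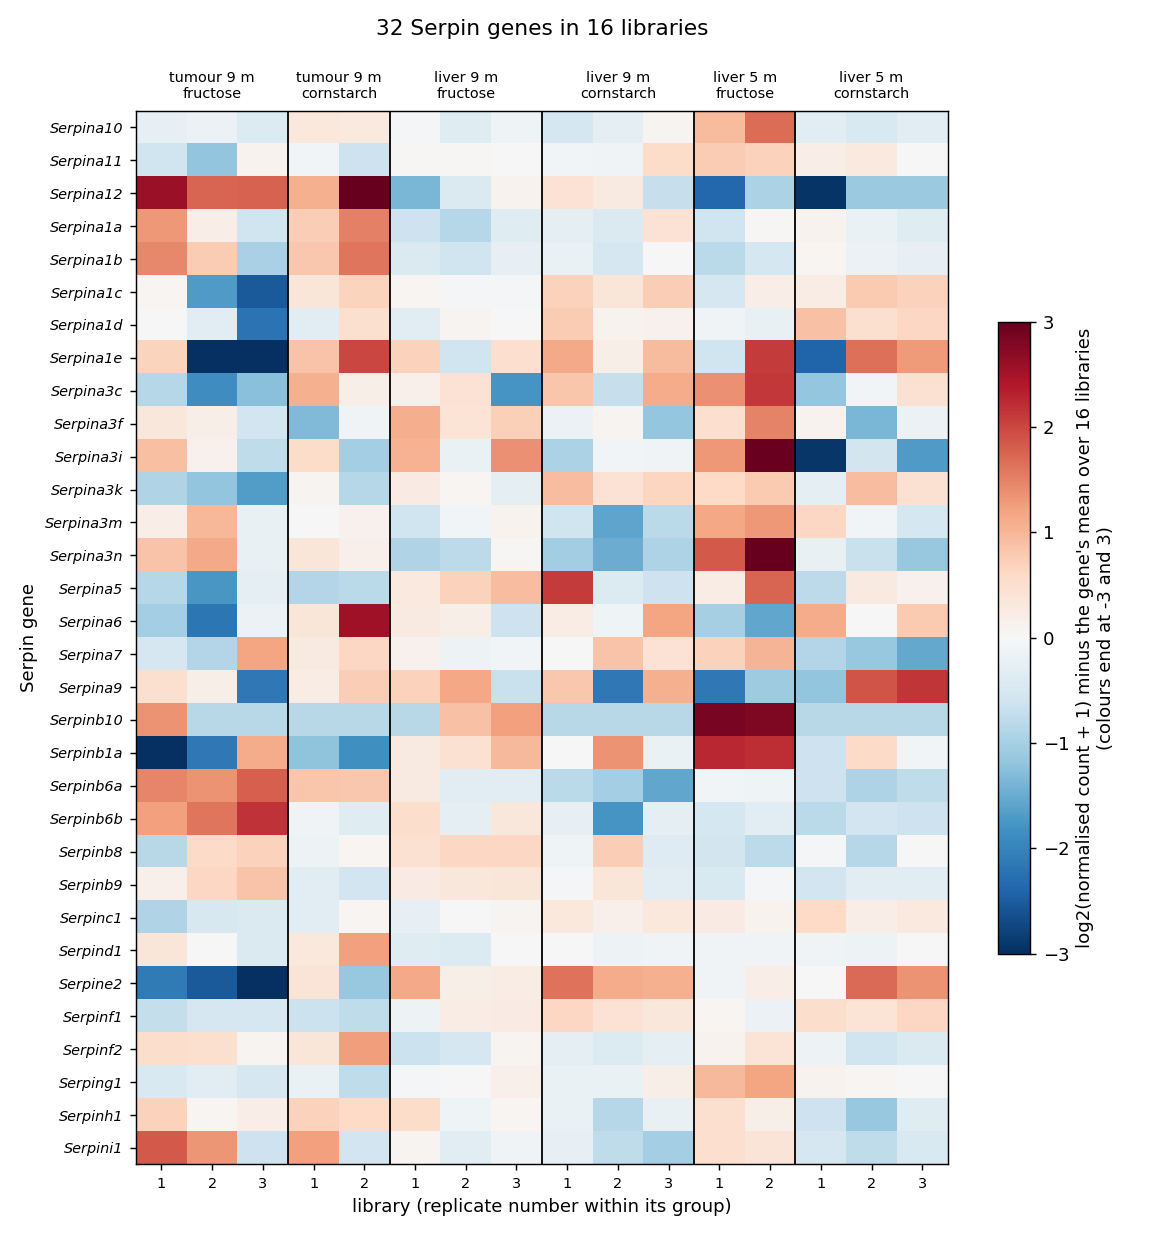
Level of each of 32 of the serpin genes (rows) in each of the 16 libraries (columns, by group), as log2(normalised count + 1) minus the gene's mean over the libraries, red above and blue below that mean. Serpina3n and Serpinb1a are high in the 5-month fructose livers, Serpina12 and Serpinb6a in all 5 tumours, and Serpina1e is lowest in fructose tumours 2 and 3.

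At 5 months, the livers on fructose had higher levels than the livers on cornstarch of, among others, Serpina3n, Serpina7, Serpina10 and Serping1, and a lower level of the glucocorticoid carrier Serpina6. Of 32 serpins tested, 10 were higher and 1 was lower (limma adjusted p under 0.05 over all genes). The 10 include Serpinb10, which entered the test only through these fructose livers, and Serpina3i, which entered it only through fructose livers of both ages. Neither of them adds support. Of all 14317 genes tested, 14.8% passed, 10.3% higher and 4.48% lower. The median log2 fold change was 0.57 over the serpins and -0.01 over all genes. By ranges alone, 16 serpins, Serpinb10 and Serpina3i among them, lay higher and 5 lower in every fructose liver than in any cornstarch liver. Of all genes, 27.1% were higher and 24.7% lower in that way. Without fructose replicate 1 the count of serpins called was 7, without fructose replicate 2 it was 4, and without the 2 libraries with Xist, which leaves 1 fructose liver, it was 6, all higher. In that fit the log2 fold change was 3.91 for Serpina3n (limma adjusted p = 0.00244), 4.1 for Serpina3i (0.0279), 2.36 for Serpina7 (0.00707), 2.07 for Serpina10 (0.00513) and 1.15 for Serping1 (0.0341). The calls of Serpina3m (limma adjusted p = 0.0568), Serpina6, Serpinb1a and Serpinh1 were lost there.

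Serpinf2, the inhibitor of plasmin and so of fibrinolysis, stood at 17106 and 21338 normalised counts in the fructose livers, against 14274, 10499 and 11909.8 in the cornstarch livers, and missed the threshold (limma adjusted p = 0.0841). Of 9 fibrinolysis genes that serpins act on or with, 4 were higher and none lower, among them the plasminogen receptor gene Anxa2 (5.29-fold), Cpb2, encoding the fibrinolysis inhibitor TAFI (2.77-fold), and the urokinase receptor gene Plaur (6.43-fold).

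The antichymotrypsin cluster on chromosome 12 was higher in 3 members. Serpina3n, an acute phase protein that inhibits granzyme B and leukocyte elastase in mice, stood at 61045 and 138472 in the fructose livers, against 14722, 10744 and 7844 in the cornstarch livers. The groups did not overlap, and the difference was 8.56-fold (log2 fold change 3.10 with SE 0.40, limma adjusted p = 0.00111). Fructose replicate 2 was the higher of the pair. Serpina3m was 2.35-fold higher (log2 fold change 1.23 with SE 0.36, limma adjusted p = 0.0454), at 20822 and 23153 against 14323, 8799 and 6477, a call that was lost in 11 of 24 other settings (highest adjusted p 0.249). Serpina3i, a low member, stood at 17.5 and 58.3 against 0, 4.11 and 1.33 (limma adjusted p = 0.00907), and its fold depends on the pseudocount. Among the livers it reached 10 only under fructose, so its call says no more than these values. Serpina3k, the most abundant of the cluster, overlapped between the groups at 176664 and 200550.3 against 97749.5, 223044 and 159807. The Serpina3 members were 80.89% to 91.61% identical in their open reading frames.

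Acute phase genes and granulocyte markers were high in the same 2 livers. Of 19 genes of STAT3 and acute phase signalling, 13 were higher and none lower, and their sum was 1381472 to 2211176 normalised counts in the fructose livers, against 269037 to 373118 in the cornstarch livers. Orm1, encoding an orosomucoid, was 7.14-fold higher. The 8 neutrophil markers were all higher, with sums of 21572 to 23937 in the fructose livers, against 8.20 to 92.6 in the cornstarch livers. Macrophage markers summed to 11341 to 12302 against 4932 to 8298, with 1 of 8 higher. Of 7 granule proteases tested, many of which are targets of serpins, 5 were higher. Elane, neutrophil elastase and itself 1 of the 8 neutrophil markers, stood at 913 and 712 against 0, 0 and 1.33, and cathepsin G (Ctsg) at 398 and 359.8 against 0, 0 and 0. Of the neutrophil markers and proteases, some, among them Camp, Elane and Ctsg, passed the filter on low values only through the 5-month fructose livers. Neither the count of neutrophil markers nor that of granule proteases therefore adds support. The part of the granulocytes in the serpin levels was not tested.

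Of the 6 intracellular serpins of clade B, Serpinb1a and Serpinb10 were higher. Serpinb1a, an inhibitor of neutrophil elastase and cathepsin G that is abundant in granulocytes, stood at 329.6 and 319.8 in the fructose livers, against 43.9, 101 and 63.9 in the cornstarch livers, without overlap (log2 fold change 2.29 with SE 0.46, limma adjusted p = 0.00870). The call was lost without either fructose liver and without the 2 libraries with Xist (limma adjusted p = 0.0871), and the adjusted p over 24 other settings ranged from 6.39e-05 to 0.116. Serpinb10, known in other work from blood-forming cells, was at 11.7 and 11.4 in the fructose livers and at 0 in all 3 cornstarch livers. It entered the test only through the fructose livers, so its call says no more than these values. Serpinb6a, Serpinb6b, Serpinb8 and Serpinb9 did not pass, with log2 fold changes of 0.67, 0.24, -0.37 and 0.16.

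Among the serpins of coagulation and complement, Serpina10, the protein Z dependent inhibitor of factor Xa, stood at 8950.5 and 14689.6 in the fructose livers, against 3621, 3352 and 3626 in the cornstarch livers. This was a 3.25-fold difference without overlap (log2 fold change 1.70 with SE 0.23, limma adjusted p = 0.00132). Serping1, the inhibitor of the first complement component and of kallikrein, stood at 29897 and 34529.8 against 16313, 15687 and 15360.0, 2.04-fold higher (log2 fold change 1.03 with SE 0.18, limma adjusted p = 0.00456), and lost the call without fructose replicate 2 (limma adjusted p = 0.0622, the highest of 24 other settings, with the lowest at 3.74e-09). Antithrombin (Serpinc1) and heparin cofactor II (Serpind1), both inhibitors of thrombin, had log2 fold changes of -0.19 (SE 0.21) and -0.02 (SE 0.16) and did not pass. Of 7 coagulation and contact proteases tested, none was higher and 1 was lower, protein C (Proc, limma adjusted p = 0.0404), and none of 8 complement proteases passed.

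The hormone carriers moved in opposite directions. Serpina7, thyroxine-binding globulin, stood at 2456 and 3081 in the fructose livers, against 828, 690.3 and 519 in the cornstarch livers. It was 4.12-fold higher (log2 fold change 2.04 with SE 0.26, limma adjusted p = 0.000965), with no overlap. Serpina6, corticosteroid-binding globulin, stood at 2499.8 and 1679 against 10743, 5032 and 8597 and was 3.78-fold lower (log2 fold change -1.92 with SE 0.43, limma adjusted p = 0.0147). The Serpina6 call was lost in 3 of 24 other settings: in 1 fit of all 16 libraries, without fructose replicate 2 and without the 2 libraries with Xist (limma adjusted p = 0.0686), with a range from 6.97e-05 to 0.152.

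Serpinh1 (HSP47), the chaperone that folds procollagen in the endoplasmic reticulum, stood at 315 and 254 in the fructose livers, against 145, 103 and 176 in the cornstarch livers (log2 fold change 1.03 with SE 0.29, limma adjusted p = 0.0378). The groups did not overlap, but the call was lost in 7 of 24 other settings (highest adjusted p 0.218, without the 2 libraries with Xist). Its clients differed in the same direction: 10 of 13 collagen genes were higher, with Col4a1 4.78-fold and Col3a1 4.48-fold, and 8 of 17 collagen folding and modification genes were higher, led by Sparc (2.86-fold). Stellate cell markers, 4 of 8 of them higher, summed to 7951 to 9031 against 4272 to 4956. Their part in the level of Serpinh1 was not tested.

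**Figure D2:**
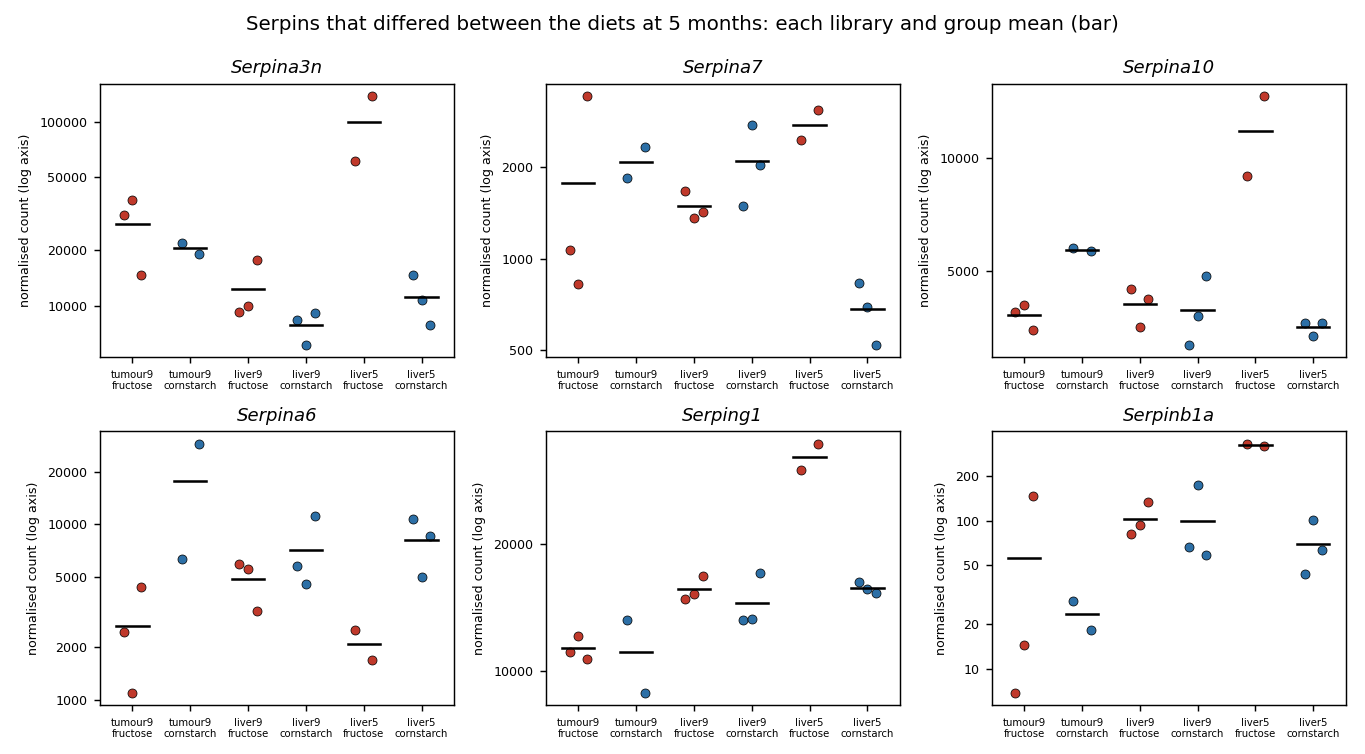
Normalised counts (log axis) of 6 serpins in each library (points) by group, red for fructose and blue for cornstarch, with the group mean as a bar. Serpina3n, Serpina7, Serpina10, Serping1 and Serpinb1a lie higher and Serpina6 lower in the 2 fructose livers of 5 months than in the 3 cornstarch livers of that age.

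At 9 months, a single serpin differed between the diets in liver. Serpinb6a, an intracellular inhibitor of cathepsin G and of trypsin-like proteases, stood at 609, 409.9 and 405 in the fructose livers, against 290.2, 250.5 and 172 in the cornstarch livers. All 3 fructose livers lay above all 3 cornstarch livers, a 2-fold difference (SE of the log2 fold change 0.21, limma adjusted p = 0.0411). It was 1 call among 32 serpins tested, where 2.54% of all 14317 genes passed, 2.32% higher and 0.217% lower. The call was lost in 13 of 24 other settings, among them the removal of any 1 of 10 of the 11 livers, and its adjusted p ranged from 0.00146 to 0.135. Without cornstarch replicate 1 of 9 months the call was kept.

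Macrophage markers were higher in the same livers, in 5 of 8 genes, with sums of 8983 to 11494 in the fructose livers, against 2026 to 5198 in the cornstarch livers. Endothelial markers summed to 4657 to 6799.5 against 1165 to 3381, with 1 of 6 higher. The part of these cells in the level of Serpinb6a was not tested. Of the collagen genes 7 of 13 were higher at 9 months, with Col4a1 2.47-fold, and of the collagen folding genes 2 of 17. Serpinh1 stood at 329.8, 206 and 234 in the fructose livers, against 198, 124 and 192 in the cornstarch livers, and did not pass (limma adjusted p = 0.237). Of 14 lysosomal protease genes, cathepsins and legumain (Lgmn) among them, which clade B serpins can meet inside cells, Lgmn was higher (2.56-fold) and the other 13 did not pass.

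Several serpins called at 5 months had smaller estimates at 9 months. Serpina3n stood at 9256, 9888 and 17681 in the 9-month fructose livers, against 8352, 6117 and 9106 in the 9-month cornstarch livers (log2 fold change 0.60, SE 0.36). A test of the diet effect at 9 months minus that at 5 months called Serpina7 (log2 difference -2.50, SE 0.35, limma adjusted p = 0.0153) and Serpina10 (-1.63, SE 0.31, limma adjusted p = 0.0472), 2 of 32 serpins, both negative, where 0.698% of all genes passed, 0.00698% positive and 0.691% negative. Serpina7 stood at 1673, 1364 and 1426 in the 9-month fructose livers and 1494, 2752 and 2039 in the 9-month cornstarch livers. At that age 2 of the 3 fructose livers lay below every cornstarch liver, whereas both fructose livers of 5 months lay above every cornstarch liver of that age. Serpina3n (log2 difference -2.50, limma adjusted p = 0.0755) did not pass. Without fructose replicate 2 of 5 months, or without fructose replicate 2 of 9 months, none of the serpins passed this test. The count was 1 without any 1 of the other 9-month livers, or without cornstarch replicate 2 or 3 of 5 months, and it was 6 by DESeq2.

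**Figure D3:**
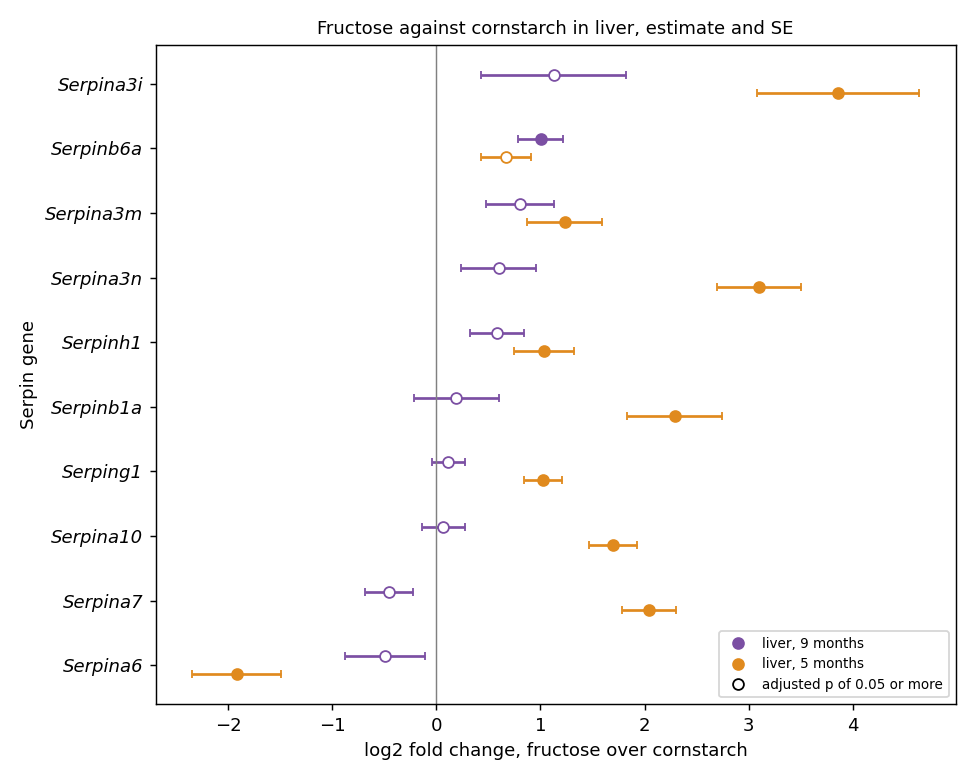
Log2 fold change of fructose over cornstarch (points) with its standard error (bars) in liver at 9 months (purple) and 5 months (orange), for 10 serpins called at either age, with Serpinb10 left out because its cornstarch livers of 5 months were all at 0. Filled points passed an adjusted p of 0.05 (limma over all genes), and Serpinb6a is the single filled point of 9 months.

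Over both ages together, 16 of 32 serpins differed between the diets, 12 higher and 4 lower under fructose, while 21.4% of all genes passed, 13.8% higher and 7.61% lower. The 12 include Serpinb10 and Serpina3i, which in liver reached 10 only under fructose. They also include Serpina7 and Serpina10, whose diet effect was called as differing between the ages, so for them the mean over ages stands for neither age alone. At 9 months Serpina7 averaged 1488 in fructose livers and 2095 in cornstarch livers. Beyond the genes already named, Serpina3f was higher (2.49-fold, log2 fold change 1.32 with SE 0.33, limma adjusted p = 0.0177), with 179, 112 and 137 in the 9-month fructose livers against 73.3, 87.6 and 36.9 in the 9-month cornstarch livers, and 118 and 234 in the 5-month fructose livers against 89.7, 31.8 and 73.2 in the 5-month cornstarch livers. The 3 further serpins that were lower were Serpina1c (1.58-fold, limma adjusted p = 0.0306), Serpina1d (1.54-fold, limma adjusted p = 0.0345) and Serpinf1, pigment epithelium derived factor, which inhibits no protease and restrains vessel growth (1.38-fold, limma adjusted p = 0.0192). These 3 calls were lost in 9, 10 and 3 of 23 other settings, with highest adjusted p of 0.225 for Serpina1c, 0.231 for Serpina1d and 0.0972 for Serpinf1. Without the 2 libraries with Xist the adjusted p by limma was 0.0704 for Serpina1c, 0.106 for Serpina1d and 0.0513 for Serpinf1. Without fructose replicate 2 of 5 months, the count was 7.

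Between the ages, averaged over the diets, 4 of 32 serpins were lower at 9 than at 5 months and none was higher, while 2.77% of all genes passed, 0.768% higher and 2% lower. They were Serpina3n (log2 fold change -1.72 with SE 0.27, limma adjusted p = 0.0162), Serpina3m (log2 fold change -1.22 with SE 0.24, limma adjusted p = 0.0300), Serpina10 (log2 fold change -0.68 with SE 0.15, limma adjusted p = 0.0432) and Serping1 (log2 fold change -0.59 with SE 0.12, limma adjusted p = 0.0341). In the cornstarch livers alone, Serpina3m stood at 6141, 3109 and 5308 at 9 months and 14323, 8799 and 6477 at 5 months, without overlap, and Serpina3n at 8352, 6117 and 9106 at 9 months and 14722, 10744 and 7844 at 5 months, with overlap. In the same livers Serping1 stood at 13201, 13271 and 17099 at 9 months and 16313, 15687 and 15360.0 at 5 months, with overlap. In the cornstarch livers Serpina10 stood at 3173, 3780.2 and 4838 at 9 months and 3621, 3352 and 3626 at 5 months, again with overlap. Without fructose replicate 2 of 5 months none passed, and without the 2 libraries with Xist 1 did, Serpina3n. The count was 1 without any 1 of the 3 fructose livers of 9 months or without cornstarch replicate 1 or 2 of 5 months, and 2 without cornstarch replicate 2 of 9 months or fructose replicate 1 of 5 months.

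In tumours of fructose-fed mice, 5 of 30 serpins tested differed from the liver of the same diet and age: 3 were higher and 2 lower, while 10.2% of all 14503 genes passed, 5.75% higher and 4.46% lower. In tumours of cornstarch-fed mice, 3 of 30 differed, 2 higher and 1 lower, while 5.71% of all genes passed, 4.82% higher and 0.889% lower. Averaged over the diets, 9 were higher and 3 lower, while 23.8% of all genes passed, 13.4% higher and 10.5% lower. The median absolute log2 fold change was 0.81 under fructose and 0.93 under cornstarch over the serpins, against 0.35 and 0.36 over all genes. The count under fructose was 3 without any 1 of the 3 fructose livers or without fructose tumour 2, and 8 without fructose tumour 3. The count under cornstarch was 1 without cornstarch tumour 2, 5 without cornstarch tumour 1 and 5 without fructose tumour 3. Over both diets it was 6 without cornstarch tumour 2 and 7 without fructose liver 2.

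Serpinb6a was higher in the tumours under both diets. It stood at 1407, 1298 and 1768 in fructose tumours and 609, 409.9 and 405 in fructose livers, a 3.17-fold difference (log2 fold change 1.66 with SE 0.23, limma adjusted p = 0.00268). It stood at 898 and 888 in cornstarch tumours and 290.2, 250.5 and 172 in cornstarch livers, a 3.84-fold difference (log2 fold change 1.94 with SE 0.25, limma adjusted p = 0.00360). The lowest tumour exceeded the highest liver under each diet, and both calls held in all 23 other settings. Serpinb6b, which is 86.21% identical to Serpinb6a in its open reading frame, stood at 156, 202 and 299 in fructose tumours and 95.7, 53.8 and 83.8 in fructose livers (limma adjusted p = 0.0506), but at 61.4 and 51.0 in cornstarch tumours and 55.0, 18.4 and 53.6 in cornstarch livers (limma adjusted p = 0.526). Serpinb1a lay at 6.96, 14.6 and 147 in fructose tumours and 28.6 and 18.2 in cornstarch tumours, against 81.2, 92.9 and 135 in fructose livers and 66.5, 174 and 58.4 in cornstarch livers, with fructose tumour 3 apart from the other 4 tumours, and did not pass under either diet. Macrophage markers summed to 3065 to 6758 in fructose tumours and 8983 to 11494 in fructose livers, with 2 of 8 lower, and to 2609 to 3104 in cornstarch tumours and 2026 to 5198 in cornstarch livers.

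Serpine2 was lower in the tumours of fructose-fed mice. This gene encodes protease nexin 1, an inhibitor of thrombin and plasminogen activators held in the matrix, and stood at 41.7, 31.6 and 20.9 in fructose tumours and 409.9, 209 and 218 in fructose livers. The highest of these tumours lay far below the lowest of these livers, 8.54-fold lower on average (log2 fold change -3.09 with SE 0.41, limma adjusted p = 0.00241), and the call held in all 23 other settings. In cornstarch tumours it stood at 244 and 83.8, against 576, 406 and 389.5 in cornstarch livers (log2 fold change -1.64 with SE 0.46, limma adjusted p = 0.0639), which missed the threshold.

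Among the genes of fibrinolysis, in which Serpine2 and Serpinf2 take part, 2 of 9 genes were higher in fructose tumours and 3 of 9 in cornstarch tumours, none lower. Anxa2 was 6.09-fold higher in fructose tumours than in fructose livers and 9.09-fold higher in cornstarch tumours than in cornstarch livers, while Plaur was 3.30-fold higher in fructose tumours and 3.87-fold higher in cornstarch tumours. Tissue plasminogen activator (Plat), which Serpine2 can inhibit, stood at 262, 119.7 and 2541 in fructose tumours and 121, 13.4 and 36.7 in fructose livers (limma adjusted p = 0.0638), and at 241 and 117 in cornstarch tumours and 9.64, 3.07 and 7.15 in cornstarch livers (limma adjusted p = 0.0489). Serpinf2 was higher in tumours over both diets (log2 fold change 0.92 with SE 0.21, limma adjusted p = 0.0122), at 23089, 22226 and 16765 in fructose tumours and 20495 and 37977 in cornstarch tumours, against 10283, 11320.2 and 16771 in fructose livers and 13239.8, 11986 and 13078 in cornstarch livers. It lost the call without cornstarch tumour 2 (limma adjusted p = 0.0692, the highest of 22 other settings, with the lowest at 7.72e-05).

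Serpina12, vaspin, best known as a secreted protein of fat tissue that inhibits a kallikrein, stood at 9264, 5179 and 5284 in fructose tumours and 595, 1143 and 1657 in fructose livers. Every fructose tumour lay above every fructose liver, a 6.08-fold difference (log2 fold change 2.60 with SE 0.53, limma adjusted p = 0.0142), which missed the threshold without fructose liver 1 (limma adjusted p = 0.0528, the highest of 23 settings, with the lowest at 2.77e-05). In cornstarch tumours it stood at 3222 and 12579, against 2071, 1855 and 964 in cornstarch livers (limma adjusted p = 0.0705). Over both diets the difference was 5.00-fold (log2 fold change 2.32 with SE 0.40, limma adjusted p = 0.00287) and passed in all 22 other settings. Of the adipocyte markers, Adipoq and Lep were at 0 in all 5 tumours, Plin1 reached 0.810 in 1 fructose tumour and was at 0 in the others, and Cidec, which fatty hepatocytes also express, stood at 843, 2711 and 528 in fructose tumours and 500.4, 175 and 340.3 in fructose livers. The 5 markers summed to 529 to 2712 in fructose tumours and 184 to 525 in fructose livers, and to 157 to 473 in cornstarch tumours and 123 to 339.5 in cornstarch livers. In the livers of 5 months Serpina12 stood at 300.4 and 805 under fructose and 199, 709.8 and 711 under cornstarch.

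Serpinf1 was lower in the tumours of both diets. It stood at 4657, 5365 and 5374 in fructose tumours and 6889, 8929 and 9091 in fructose livers (log2 fold change -0.69 with SE 0.17, limma adjusted p = 0.0317), and at 4942 and 4536 in cornstarch tumours and 11797, 10379 and 9644 in cornstarch livers (log2 fold change -1.16 with SE 0.19, limma adjusted p = 0.00913). No tumour overlapped with a liver of its diet. The call under fructose was lost in 7 of 23 other settings (highest adjusted p 0.116) and the call under cornstarch without cornstarch tumour 2 (limma adjusted p = 0.117), while the call over both diets was kept in all 22. Serpinf2, which lies nearby on chromosome 11 (GRCm38, 75431732 to 75439591, with Serpinf1 at 75409769 to 75422701), had a positive log2 fold change under both diets (0.71 under fructose and 1.13 under cornstarch).

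Serpinh1 was higher in cornstarch tumours at 366 and 344, against 198, 124 and 192 in cornstarch livers (log2 fold change 1.08 with SE 0.28, limma adjusted p = 0.0494), a call lost in 14 of 23 other settings (highest adjusted p 0.286). In fructose tumours it stood at 367, 235 and 258, against 329.8, 206 and 234 in fructose livers, with overlap. Of its collagen clients, 4 of 13 were higher and 1 lower in cornstarch tumours, and 2 were higher and 1 lower in fructose tumours. Col4a1 was 1.91-fold higher in fructose tumours and 2.78-fold higher in cornstarch tumours, while Col5a3 was lower in both. Stellate markers summed to 5774 to 11012 in fructose tumours and 6020.1 to 6798 in fructose livers, and to 8484 to 8655 in cornstarch tumours and 3548 to 4611 in cornstarch livers. Of the 8 stellate markers, 1 was higher and 1 lower in fructose tumours, and 1 was higher and 0 lower in cornstarch tumours. Cholangiocyte markers summed to 1998 to 9974 in fructose tumours and 1261 to 1590.1 in fructose livers, and to 3412 to 7880.4 in cornstarch tumours and 832 to 1024 in cornstarch livers. Of 5 cholangiocyte markers tested, 1 was higher and 0 lower in the tumours of each diet. The median log2 fold change of these markers was -0.69 under fructose and 1.12 under cornstarch. The part of these cell types in the serpin levels was not tested.

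**Figure D4:**
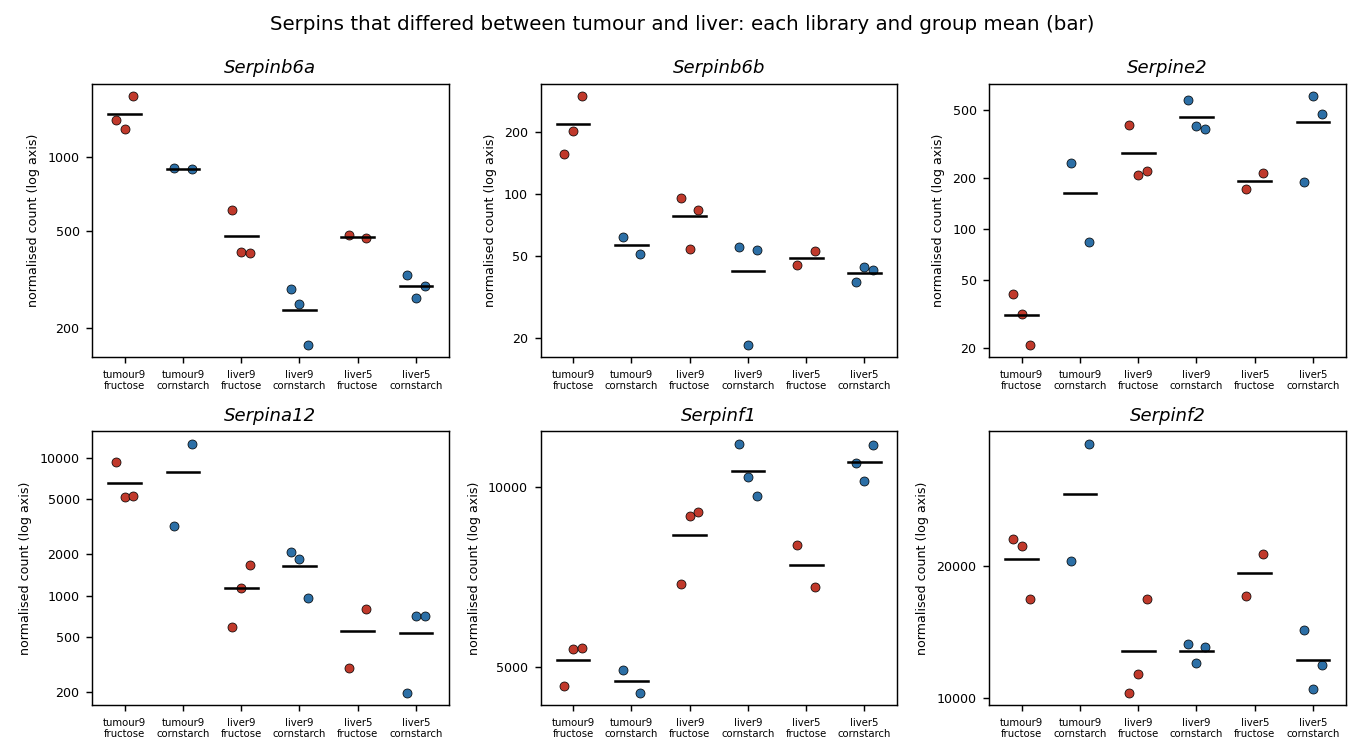
Normalised counts (log axis) of 6 serpins in each library (points) by group, red for fructose and blue for cornstarch, with the group mean as a bar. Serpinb6a and Serpina12 lie higher and Serpine2 and Serpinf1 lower in the tumours than in the 9-month livers of the same diet, and Serpinb6b is highest in the 3 fructose tumours.

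In the antichymotrypsin cluster, members moved apart in tumours over both diets. Serpina3n was higher (2.41-fold, log2 fold change 1.27 with SE 0.28, limma adjusted p = 0.00961), at 31115, 37629 and 14632 in fructose tumours and 21945 and 19154 in cornstarch tumours, against 9256, 9888 and 17681 in fructose livers and 8352, 6117 and 9106 in cornstarch livers. Serpina3m was also higher (1.73-fold, limma adjusted p = 0.0492). Serpina3k was 2.22-fold lower (log2 fold change -1.15 with SE 0.32, limma adjusted p = 0.0270), at 63003, 51928 and 36855 in fructose tumours and 124561 and 64724 in cornstarch tumours, against 139637, 121130.2 and 96622 in fructose livers and 221328, 157384 and 184366 in cornstarch livers. The Serpina3m call was lost in 11 of 22 other settings, that of Serpina3k in 5, and that of Serpina3n in none.

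The Serpina1 copies made up unlike shares in tumour and liver, of which no test was made. Serpina1b took 60.19% to 70.1% of the Serpina1 reads in fructose tumours and 38.78% to 41.4% in 9-month fructose livers, and it took 52.8% and 53.57% in cornstarch tumours and 32.01% to 36.78% in 9-month cornstarch livers. In the 5 livers of 5 months the share was 27.23% to 42.51%, so no tumour overlapped with any liver. Serpina1a took 12.96% to 21.39% in fructose tumours and 13.68% and 13.9% in cornstarch tumours, against 9.09% to 10.41% in 9-month fructose livers and 8.35% to 13.44% in 9-month cornstarch livers. Its level averaged 39286 ± 25923 normalised counts in fructose tumours (SD, n = 3) and 18052 ± 3077 in fructose livers (SD, n = 3), with fructose tumour 3 at 18270 inside the range of the livers. Over both diets Serpina1a was 2.10-fold higher in tumours (log2 fold change 1.07 with SE 0.35, limma adjusted p = 0.0474), a call lost in 11 of 22 other settings, and Serpina1b did not pass. Since the copies are near identical, the shares rest on how ambiguous reads were assigned, which is not given in the sources used here.

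Serpina1e was the most variable copy. It stood at 31813, 712 and 1714 normalised counts in fructose tumours and 36202 and 81422 in cornstarch tumours, and at 32644, 13330.2 and 28521 in 9-month fructose livers and 44318, 22647 and 39227 in 9-month cornstarch livers. Fructose tumours 2 and 3 lay far below every other 9-month library, while fructose tumour 1 was level with the livers. At 5 months it stood at 13374 and 85659 in fructose livers and 3792, 62996 and 48481 in cornstarch livers, and the lowest value of each group was the library with Xist. The 20 male-biased liver genes summed to 16058 to 33234 in fructose tumours and 73849.8 to 86884 in cornstarch tumours, against 24624 to 92244 in 9-month fructose livers and 124269.6 to 226807 in 9-month cornstarch livers. Of them 10 were lower in fructose tumours than in fructose livers and 2 in cornstarch tumours than in cornstarch livers. At 5 months they summed to 16469 to 65115 in fructose livers and 6411 to 211755 in cornstarch livers. The 20 female-biased liver genes summed to 25348 to 71474 in fructose tumours and 78850 to 127528 in cornstarch tumours. In 9-month livers these summed to 33073 to 52015 under fructose and 10874 to 42163 under cornstarch. Of 19 tested, 2 were higher in fructose tumours and 3 in cornstarch tumours, and 0 were lower. The part of either list in the level of Serpina1e was not tested. Serpina1e passed in none of the 10 comparisons.

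**Figure D5:**
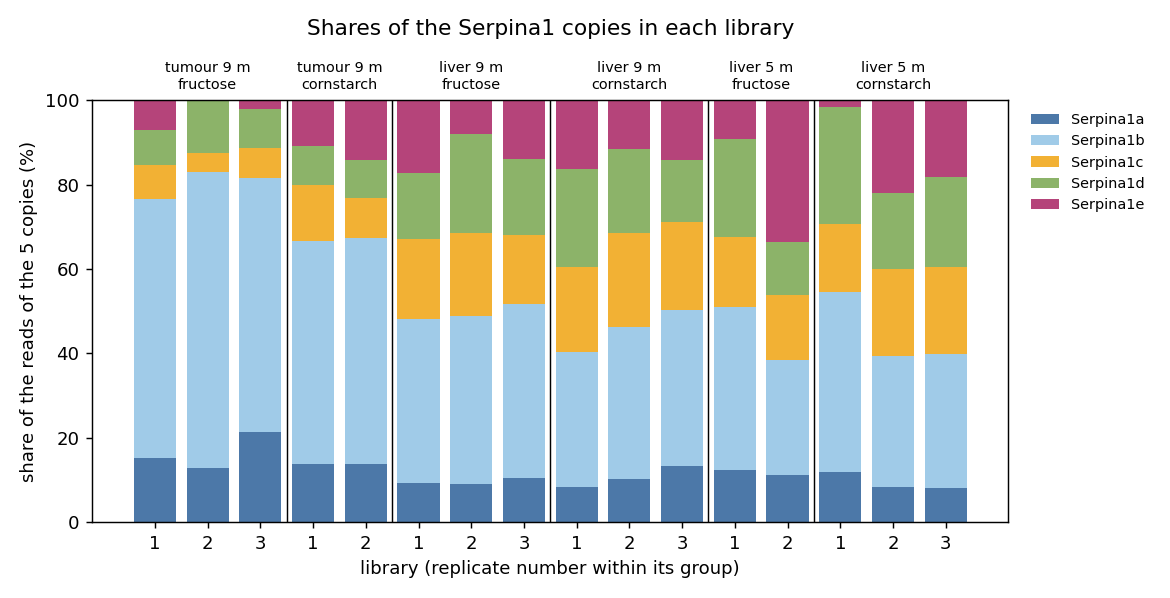
Share of each of the 5 Serpina1 copies (%, stacked bars) in the reads of all 5 copies, in each library (columns, by group). The share of Serpina1b is 52.8% or more in the 5 tumours and 42.51% or less in the 11 livers, and that of Serpina1e is smallest in fructose tumour 2 at 0.29%.

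Between fructose and cornstarch tumours, no serpin passed the test, and none of the 14503 genes did (0% called). At an unadjusted p under 0.05 there were 11 of 30 serpins and 1178 of all genes. edgeR called 0 serpins and 0 genes, and DESeq2 called 4 serpins and 119 genes. Without fructose tumour 1, limma called 2 serpins. Serpine2 had the smallest unadjusted p among the serpins, at 41.7, 31.6 and 20.9 in fructose tumours and 244 and 83.8 in cornstarch tumours (log2 fold change -2.21 with SE 0.46, limma adjusted p = 0.243). Serpinb6b stood at 156, 202 and 299 against 61.4 and 51.0 (log2 fold change 1.90 with SE 0.47, limma adjusted p = 0.352), and Serpinb9, the inhibitor that protects cells from granzyme B, at 196, 273 and 322 against 142 and 119 (log2 fold change 0.98 with SE 0.25, limma adjusted p = 0.378). None of the 3 overlapped between the diets. With groups of 3 and 2, 4 serpins were higher and 8 lower under fructose without overlap, where 10.9% of all genes were higher and 12.5% lower in that way. The difference of the diet effect between tumour and liver was called for none of the serpins (0% of genes called; 4 serpins and 424 genes at an unadjusted p under 0.05; 0 serpins and 0 genes by edgeR and by DESeq2), so no diet effect was shown to differ between tumour and liver.

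The members that passed in no comparison were Serpina11, Serpina1b, Serpina1e, Serpina3c, Serpina5, Serpina9, Serpinb8, Serpinb9, Serpinc1, Serpind1 and Serpini1. Serpinc1 had negative log2 fold changes in all 5 comparisons between 2 groups: -0.31 for diet in 9-month liver, -0.19 for diet in 5-month liver, -0.47 for diet in tumours, -0.55 for tumour under fructose and -0.38 for tumour under cornstarch, with standard errors of 0.19 to 0.27. It stood at 15953, 21376 and 22194 in fructose tumours and 24022 and 30913 in cornstarch tumours, against 25221, 29834 and 31470.0 in 9-month fructose livers and 36819, 33178 and 36815 in 9-month cornstarch livers. Serpind1 stood at 13074, 10254 and 7561 in fructose tumours and 12674 and 23686 in cornstarch tumours, with cornstarch tumour 2 the highest of all 16 libraries. Serpini1, a brain serpin that inhibits tissue plasminogen activator, stayed at or under 23.5 and was not tested in liver, and Serpina5, Serpina9 and Serpinb10 were not tested at 9 months of tumour and liver together, since they missed the filter there.

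Promoter windows of RefSeq (GRCm38.p6) were found for 25 of the 33 members, and the 250 bases before the start were searched. For Serpina1a to Serpina1d, Serpina3c, Serpina3n, Serpinc1 and Serpini1, the bases just after the RefSeq start were not found near the start of a GENCODE transcript. The starts of these genes are therefore uncertain. The STAT motif TTCNNNGAA, which reads the same on both strands, was found in 4 of the 25 (16%) and in 7.179% of all 27025 windows. It was in those of Serpina11, Serpina3f, Serpina3i and Serpinb6a. Another RefSeq start of Serpinb6a had no match in its window. The C/EBP motif TTNNGCAA, searched on both strands, was found in 7 of the 25 (28%) and in 9.554% of all windows. The windows with a match were those of Serpina12, Serpina1b, Serpina1d, Serpina1e, Serpina3f, Serpina5 and Serpina7. Serpina1b, Serpina1d and Serpina1e held the same letters, TTGCTTAA, in upstream DNA that is 93.7% to 97.98% identical. Their matches are therefore not independent, and the 28% cannot be read as an enrichment over all windows. These motifs, too, were chosen after the values had been seen, and a match of letters is not a site.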

How the data were processed

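Libraries were made from total RNA by a TruSeq mRNA protocol, according to the labels. What the authors deposited is a single matrix of signal values, namely gene counts scaled between libraries. FastQC, Trim Galore, STAR, RSEM, DESeq2 and GRCm38 were used by the authors, per the submitters' processing notes, without versions or roles. Each library's deposited values were multiples of 1 step, and dividing by it gave whole reads for 100% of values (within 0.01). Log2(value + 1) was fitted with limma 3.58.1 (R 4.3.3, trend, a mean per group). The test covered genes reaching 10 in at least 2 of the fitted libraries, with Benjamini-Hochberg adjustment over all genes and a threshold of 0.05. Liver comparisons used the 11 livers, tumour comparisons the 11 libraries of 9 months, and groups of 2 or 3 shared 1 estimate of the spread. On this scale, with its pseudocount of 1, fold changes of low genes are understated. edgeR 4.0.16 and DESeq2 1.42.0 were run on recovered reads as alternatives. Gene IDs were matched to GENCODE M21 (98.77% of 47069). The pipeline was tested on simulated data. Members were named by a fixed rule: those called in any comparison, with values per library for the largest differences by clade and role, and up to 3 genes of each list by smallest p. A few uncalled members and the motifs were chosen after their values were seen. The values of 1 member are not reported here. The members and lists were chosen with earlier results of these data known.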

Additional observations from a re-analysis of the deposited data

Results flagged for a closer look

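The diet effect differed between the ages for 2 serpins, by the test of the difference itself. For Serpina7, thyroxine-binding globulin, the diet effect at 9 months minus that at 5 months was -2.5 on the log2 scale (SE 0.35, limma adjusted p = 0.0153). The 9-month fructose livers stood at 1673, 1364 and 1426 and the 9-month cornstarch livers at 1494, 2752 and 2039. The 5-month fructose livers stood at 2456 and 3081 and the 5-month cornstarch livers at 828, 690.3 and 519. The adjusted p ranged from 2.36e-08 to 0.147 over 23 other settings, and the threshold was missed in 3 of them: in 1 fit of all 16 libraries, without fructose replicate 2 of 9 months and without fructose replicate 2 of 5 months.

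For Serpina10, the inhibitor of factor Xa, the difference was -1.63 (SE 0.31, limma adjusted p = 0.0472). The 9-month fructose livers stood at 4471, 3549.8 and 4205 and the 9-month cornstarch livers at 3173, 3780.2 and 4838. The 5-month fructose livers stood at 8950.5 and 14689.6 and the 5-month cornstarch livers at 3621, 3352 and 3626. The threshold was missed in 16 of 23 other settings, with adjusted p from 8.46e-05 to 0.280.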

How the results depend on the processing

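Of 54 called pairs of a serpin and a comparison, none changed direction under 13 alternatives or with each of the 16 libraries left out, and 20 stayed past the threshold wherever they were tested. Among these are the pairs of Serpinb10 with diet at 5 months and with diet over both ages, tested in 20 and 19 other settings. Serpinb10 reached 10 only in the 5-month fructose livers and missed the filter in the remaining settings, so its pairs add no support. The 54 pairs were past the threshold in 581 results and short of it in 61 under the alternatives, and in 452 and 138 with a library left out. The difference of the diet effect between ages had 1 call under a pseudocount of 0.5, a filter on a mean of 50, quantile and upper quartile scaling, 1 fit of 16 libraries and edgeR, and 6 by DESeq2, instead of 2. Age had 2 calls without a filter and with quantile or upper quartile scaling, 8 by DESeq2 and 1 without the 2 libraries with Xist, instead of 4. Diet in 9-month liver had 0 calls with the compared groups alone, with array weights and without the 2 libraries with Xist, instead of 1. Diet in 5-month liver had 19 calls with array weights, 17 by DESeq2 and 6 without the 2 libraries with Xist, instead of 11. Tumour under fructose had 8 with array weights and 9 by DESeq2, instead of 5, tumour under cornstarch 10 by DESeq2, instead of 3, and diet in tumours 4 by DESeq2, instead of 0. With each library left out, the calls ranged from 0 to 1 for diet in 9-month liver, 4 to 15 for diet in 5-month liver, 7 to 16 over both ages, 0 to 5 for age, 0 to 2 for the difference between ages, 0 to 2 for diet in tumours, 3 to 8 for tumour under fructose, 1 to 5 under cornstarch, 6 to 16 over both diets, and 0 for the difference between tissues. The cause of these shifts was not tested. No paired analysis was possible because the labels do not say which libraries share a mouse. The replicate and tumour numbers used here follow the order of the samples within each group and are not in the labels. Where leaving out a library left 1 in its group, that one was assumed to vary like the rest. With 2 or 3 libraries a group, small differences in these serpins were not detectable, and a call missed here does not show that levels were equal.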
